A study of Homo sapiens with 2 samples.

Results

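The transcription factors that set squamous and lung identity were followed in a parental and a bone-seeking cancer line. HARA is an established line from a human squamous cell carcinoma of the lung, and HARA-B4 is its subline with strong metastasis to bone. The set held 10 genes of the 19776 that could be named on the arrays: TP63, SOX2, KLF4, KLF5, TFAP2A, TFAP2C, NKX2-1, PAX9, FOXA1 and GRHL2. Each was found by its symbol in the platform annotation, except TP63, which was read by 1 probe set assigned to it by its ID. The rule itself reads names only, but the set and the gene lists below were chosen with earlier results of these data known. Both lines were grown in RPMI 1640 with serum and antibiotics, the labels name no treatment, and total RNA of each line was hybridised to 1 Affymetrix array. Each group is therefore 1 array of 1 cell line (n = 1), no p-value can be given, and nothing here measures the spread between cultures. The way HARA-B4 was selected, and whether it is a clone, were not given in the sources used here.

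TP63, a relative of p53, maintains the basal cells of stratified epithelium, and with SOX2 it lies on the long arm of chromosome 3 in a region often amplified in squamous lung cancer. KLF5 sustains proliferating basal epithelium, whereas KLF4 drives the barrier and differentiation genes of the upper layers. TFAP2A and TFAP2C are AP-2 factors of surface ectoderm, GRHL2 keeps epithelial junction genes active, PAX9 patterns the foregut and oral squamous epithelium, and NKX2-1 and FOXA1 specify lung epithelium and mark adenocarcinoma more than squamous cancer.

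The comparison asks how these regulators differed between the parental and the bone-seeking line. All 10 were above background on both arrays, where background was a signal of 27.1, or 4.76 on the log2 scale. Differences are log2 signal in HARA-B4 minus log2 signal in HARA, and where a pair of signals is given the HARA value comes first. KLF4 was higher in HARA-B4 by 1.93 (3.82-fold), and PAX9 was lower by 2.25 (log2 difference -2.25, 4.74-fold). The other 8 lay under 2-fold, from -0.48 for NKX2-1 to 0.72 for TFAP2C. Thus 1 of 10 was higher and 1 lower by 2-fold or more, where 3.62% and 4.20% of the 11497 genes above background on at least 1 array were so called, 7.82% in either direction. The median of the 10 differences was 0.15, against 0.01 over those 11497 genes. A bulk array cannot separate fewer cells that express a gene from less RNA in each cell.

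The arrays were alike in overall level, with median signals of 17.3 and 16.2. Genes above background on both arrays had an SD of 0.55 in their differences. The technical yardstick was the spread among probe sets of the same gene, an SD of 0.30 over the 4830 genes that more than 1 probe set could read in both lines. It comes from probe sets on the same arrays, so it covers no repeat hybridisation and says nothing of repeat cultures. The squamous label matched the basal keratins, with KRT5 signals of 4723 (HARA) and 4504 (HARA-B4) and KRT14 signals of 3938 and 7345. Among 19 measured markers of blood, stromal, endothelial and neuroendocrine cells, 5 were above background on at least 1 array. Of these, COL1A1 read 185 and 140, CD79A 63.4 and 55.2, PECAM1 50.6 and 50.4 and HBB 35.7 and 33.9, while NCAM1 was just above background in HARA-B4 only. PTPRC, COL1A2, COL3A1, VWF and CHGA were not above background on either array. The summed signal of these 19 was 449 in HARA and 398 in HARA-B4.

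The stretches of DNA just before the start sites are shown for KLF4 and PAX9, the 2 factors past 2-fold, and for NKX2-1 and FOXA1, which lie near PAX9 on chromosome 14. The sequences are from RefSeq (GRCh38.p14), 250 bases each, ending at the base before the start. Windows were taken for 8 of the 10 members. TFAP2C had no match, and GRHL2 was not searched because entries on its chromosome, 8, were left out. Each is written 5′ to 3′ on the gene's own strand. Capitals mark matches, on either strand, to the GC box GGGCGG of SP and KLF factors, the CACCC box CCACCC of KLF factors, the AP-2 box GCCNNNGGC, the SOX box CATTGT, the forkhead box TGTTTAC, the NK2 box CAAGTG, the grainyhead box AACCNGTT or the TATA box TATAAA. The GC box and CACCC box can adjoin or overlap other GC-rich motifs.
KLF4 (chr9:107489770-107490019, minus strand): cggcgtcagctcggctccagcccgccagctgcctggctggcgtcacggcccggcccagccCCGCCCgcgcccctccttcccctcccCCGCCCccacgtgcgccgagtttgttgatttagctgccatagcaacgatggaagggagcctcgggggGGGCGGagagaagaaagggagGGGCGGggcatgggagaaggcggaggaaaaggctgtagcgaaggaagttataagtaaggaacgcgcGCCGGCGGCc
PAX9, first start (chr14:36657318-36657567, plus strand): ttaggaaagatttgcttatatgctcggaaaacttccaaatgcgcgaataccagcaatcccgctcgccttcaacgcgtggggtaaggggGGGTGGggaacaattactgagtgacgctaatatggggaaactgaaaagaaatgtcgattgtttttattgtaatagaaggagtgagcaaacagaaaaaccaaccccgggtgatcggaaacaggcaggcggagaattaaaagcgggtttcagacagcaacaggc
PAX9, second start (chr14:36661610-36661859, plus strand): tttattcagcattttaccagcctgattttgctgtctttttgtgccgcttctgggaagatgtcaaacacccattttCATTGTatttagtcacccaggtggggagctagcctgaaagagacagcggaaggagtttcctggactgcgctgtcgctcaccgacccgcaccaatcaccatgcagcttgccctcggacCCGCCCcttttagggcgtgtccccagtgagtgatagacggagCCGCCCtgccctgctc
NKX2-1, first start (chr14:36520233-36520482, minus strand): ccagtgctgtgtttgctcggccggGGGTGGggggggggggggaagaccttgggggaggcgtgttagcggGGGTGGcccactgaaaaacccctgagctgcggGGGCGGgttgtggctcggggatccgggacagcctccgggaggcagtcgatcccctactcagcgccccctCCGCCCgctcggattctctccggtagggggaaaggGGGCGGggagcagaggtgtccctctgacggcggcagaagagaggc
FOXA1 (chr14:37595250-37595499, minus strand): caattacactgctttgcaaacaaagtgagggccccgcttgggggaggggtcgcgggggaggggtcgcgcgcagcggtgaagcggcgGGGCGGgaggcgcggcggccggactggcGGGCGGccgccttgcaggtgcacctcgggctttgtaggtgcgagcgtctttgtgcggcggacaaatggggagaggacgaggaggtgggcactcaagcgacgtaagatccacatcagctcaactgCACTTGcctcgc

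The KLF4 stretch held 4 GC boxes and 1 AP-2 box, and the first NKX2-1 stretch 3 GC boxes and 2 CACCC boxes. FOXA1 had 2 GC boxes and 1 NK2 box. The stretch before the first PAX9 start had 1 CACCC box, and that before the second had 2 GC boxes and 1 SOX box. Of all 35116 RefSeq windows of this length, 42.6% held a GC box, 13.9% held at least 3, 31.3% a CACCC box, 19.8% an AP-2 box, 9.29% a SOX box, 9.50% an NK2 box, 2.98% a forkhead box, 1.49% a grainyhead box and 10.7% a TATA box. The stretch before a second NKX2-1 start, which is not printed, had 0 GC boxes, 1 CACCC box, 1 forkhead box and 1 NK2 box and was 49.6% G or C. The KLF4, first NKX2-1 and FOXA1 stretches were 69.2%, 70.8% and 67.2% G or C and the PAX9 stretches 46.8% and 54.8%, against a median of 58.0% over all windows. These matches describe letters only and show no binding.

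**Figure D1:**
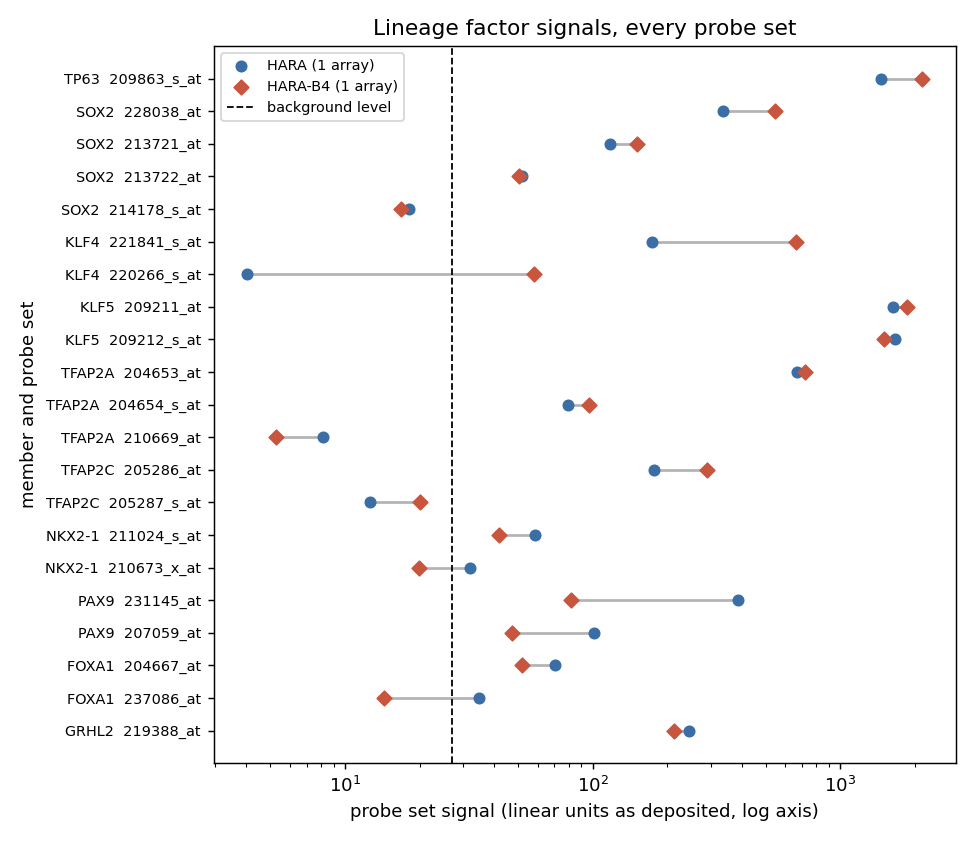
Signal of each of the 21 probe sets of the lineage factors in HARA (circles) and HARA-B4 (diamonds), 1 array each, on a log axis in the deposited linear units, with the background level as a dashed line. The widest gaps above background are those of KLF4, to the right in HARA-B4, and of PAX9, to the left, and each of these genes moves the same way in both of its probe sets.

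KLF4 was the member with the higher signal in HARA-B4 by the widest margin. Its brighter probe set, 221841_s_at, read 174 in HARA and 663 in HARA-B4. The other, 220266_s_at, read 4.03 in HARA, not above background, and 57.7 in HARA-B4, so this probe set was at least 2.13-fold higher in the subline. Both therefore stood higher in HARA-B4. Among the 10208 genes above background on both arrays, KLF4 had the 54th highest difference. Both KLF4 probe sets end in _s_at, a suffix for designs that match several transcripts, so no KLF4 value exists without that class.

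KLF5, the paralog of the basal layer, was bright and nearly level. Its probe set 209211_at read 1625 against 1864 in HARA-B4 (a log2 difference of 0.20), and 209212_s_at read 1669 and 1498 (-0.16). The probe sets thus differed in sign, and each lay within the technical SD of 0.30 from 0.

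Of the 15 other KLF genes measured, 10 were above background, with 0 higher and 1 lower at 2-fold and a median difference of 0.05. The lower one was KLF15, which read 99.4 and 47.4 (-1.07); no KLF paralog was lower by 2-fold under quantile normalization, with the background at the 99th percentile or raised by 1 (log2), with all probe sets averaged or on log2(signal + 16). KLF13 differed by -0.62, KLF12 by -0.38, KLF16 by -0.02, and KLF11 read 37.1 on both arrays. On the positive side KLF10 differed by 0.10, KLF3 by 0.13, KLF6 by 0.22, KLF2 by 0.31 and KLF7 by 0.62. The highest of these paralogs was thus KLF7, against 1.93 for KLF4.

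**Figure D2:**
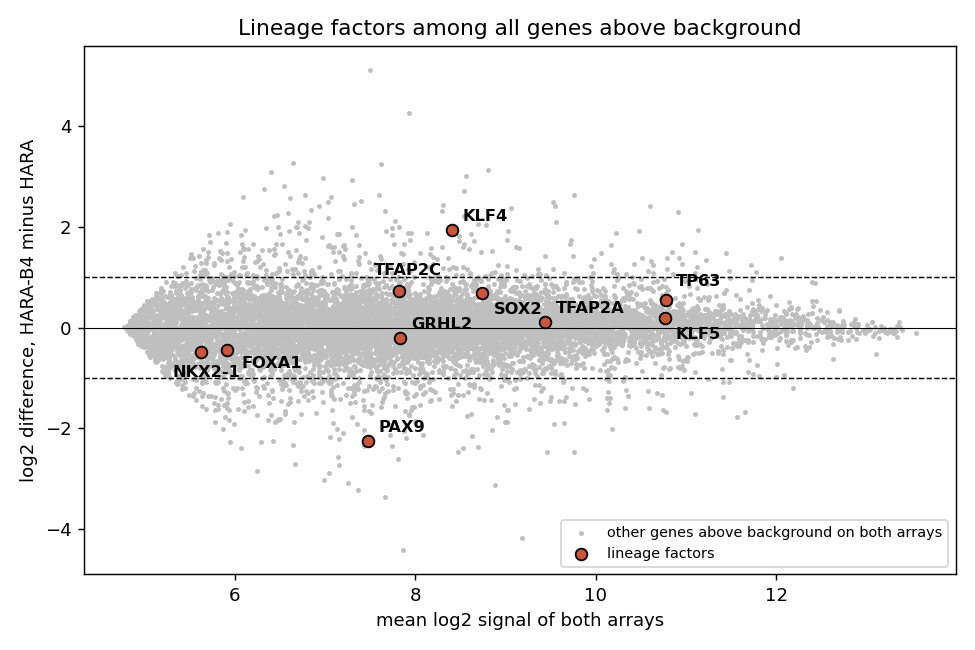
Log2 difference (HARA-B4 minus HARA) against the mean log2 signal for genes above background on both arrays (grey) and the 10 lineage factors (red), with dashed lines at 2-fold. KLF4 at 1.93 and PAX9 at -2.25 lie outside the lines, and the other 8 lie between them.

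TP63 and SOX2 were both higher in HARA-B4 by less than 2-fold. TP63 read 1457 in the parental line and 2131 in the subline (log2 difference 0.55, 1.46-fold). SOX2 read 335 and 543 on its brightest probe set, 228038_at (0.69, 1.62-fold). These differences exceed the technical SD of 0.30 and rank 1094th and 722nd from the highest among 10208 genes, so many other genes differed more.

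The SOX2 probe sets did not give 1 size. The probe set 213721_at read 117 in HARA and 151 in HARA-B4 (0.37), and 213722_at read 51.6 and 50.4 (-0.04). The fourth, 214178_s_at, was not above background on either array. With the mean over all probe sets the SOX2 difference was 0.23, in place of 0.69. The higher SOX2 value thus rested on its brighter probe sets.

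Among 19 SOX paralogs measured, 7 were above background, 0 higher and 1 lower at 2-fold, with a median of -0.27. SOX15, a SOX gene expressed in stratified epithelium, read 168 in HARA and 47.2 in HARA-B4 (-1.83), and another probe set of it differed by -0.67; with the background at the 99th percentile no SOX paralog was lower by 2-fold. SOX7 differed by -0.89, SOX12 by -0.39, SOX13 by 0.51 and SOX4 by 0.63. SOX6 was above background in HARA only (at least 1.20-fold lower in HARA-B4) and SOX9 in HARA-B4 only (at least 1.40-fold higher). Of the p53 family, TP73 read 76.8 and 69.6 (-0.14).

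The AP-2 factors parted in size. TFAP2C, studied most in breast and placental epithelium, read 176 in HARA and 291 in HARA-B4 (0.72, 1.65-fold), while its second probe set, at 12.6 and 20.1, was not above background on either array. TFAP2A read 668 and 720 on its brightest probe set (0.11) and 79.3 and 96.9 on the next (0.29). The last, 210669_at, was not above background on either array, and with it included the mean over all probe sets was -0.08. Both readable TFAP2A probe sets were thus slightly higher in HARA-B4, by no more than the technical SD of 0.30, and TFAP2C stood higher on the single probe set that could be read. TFAP2E was above background in HARA only, at 31.4 against 18.6, close to the limit.

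GRHL2, which acts across epithelia, was measured by 1 probe set, at 245 in HARA and 212 in HARA-B4 (-0.21). This lies within the technical SD. Its paralog GRHL1 was the higher gene of the grainyhead family, at 84.1 and 262 (1.64, 3.11-fold), and another GRHL1 probe set differed by 0.85. GRHL3 was above background in HARA only (at least 1.39-fold lower in HARA-B4) and TFCP2L1 in HARA-B4 only (at least 1.21-fold higher). The relatives TFCP2 and UBP1 differed by 0.29 and -0.03. GRHL1 was thus the 1 paralog, of 27 above background in the 8 families listed, that was at least 2-fold higher, beside 2 that were lower. Over all genes 3.62% were higher and 4.20% lower, and these counts are not read as a result about the paralogs.

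PAX9, NKX2-1 and FOXA1, the foregut and lung regulators, were all lower in HARA-B4. PAX9 read 387 in HARA and 81.6 in HARA-B4 on 231145_at (-2.25) and 102 and 47.3 on 207059_at (-1.10). Both probe sets passed 2-fold, and PAX9 had the 26th lowest difference among 10208 genes. The mean over its probe sets was -1.67.

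NKX2-1 was dim on both arrays. It read 58.6 in HARA and 41.9 in HARA-B4 on 211024_s_at (-0.48), and 32.1 and 19.8 on 210673_x_at, where the HARA-B4 value was not above background. FOXA1 read 70.4 and 52.0 on 204667_at (-0.44), and 34.8 and 14.4 on 237086_at, again above background in HARA only. With the mean over its probe sets FOXA1 differed by -0.85. Each probe set of both genes was lower in HARA-B4, and the nearness of these signals to the background of 27.1 limits what size of difference they can show.

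The other paralogs of these genes were mostly not above background: FOXA2 and FOXA3 on neither array, and 2 of 8 PAX genes on at least 1 array, PAX8 (0.29) and PAX3 (-0.10). Of 4 NK2 homeobox paralogs, NKX2-5 was above background, at 96.6 in HARA and 156 in HARA-B4 (0.70).

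PAX9, NKX2-1 and FOXA1 lie close together on chromosome 14 in RefSeq order (GRCh38.p14), with few genes between them, and so their values were set beside those of their neighbours. The 10 nearest genes above background on both arrays, on each side of the 3 factors, made 22 different genes, since the 3 share most of them. Of these 22 genes, 21 were lower in HARA-B4, 13 of them by 2-fold or more, and their median was -1.03. Of all genes above background on at least 1 array, 4.20% were lower by 2-fold or more. Over all genes above background on both arrays the median was 0.02.

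Within this stretch the 3 factors differed in size. PAX9, at -2.25 on its brightest probe set, was 1.22 below the median of its 20 flanking genes. Only NFKBIA, which encodes an inhibitor of NF-kappaB, was lower among them (-2.39). The other PAX9 probe set, at -1.10, lay near that median of -1.03. NKX2-1 and FOXA1 were 0.54 and 0.59 above the medians of their flanking genes. SLC25A21, which follows PAX9 in this order, read 56.8 and 48.8 (-0.22), and MIPOL1, next to FOXA1, read 152 and 90.8 (-0.74). These flanking genes were named after their values were seen. Whether the shift of the neighbours has a part in the values of the 3 factors was not tested.

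**Figure D3:**
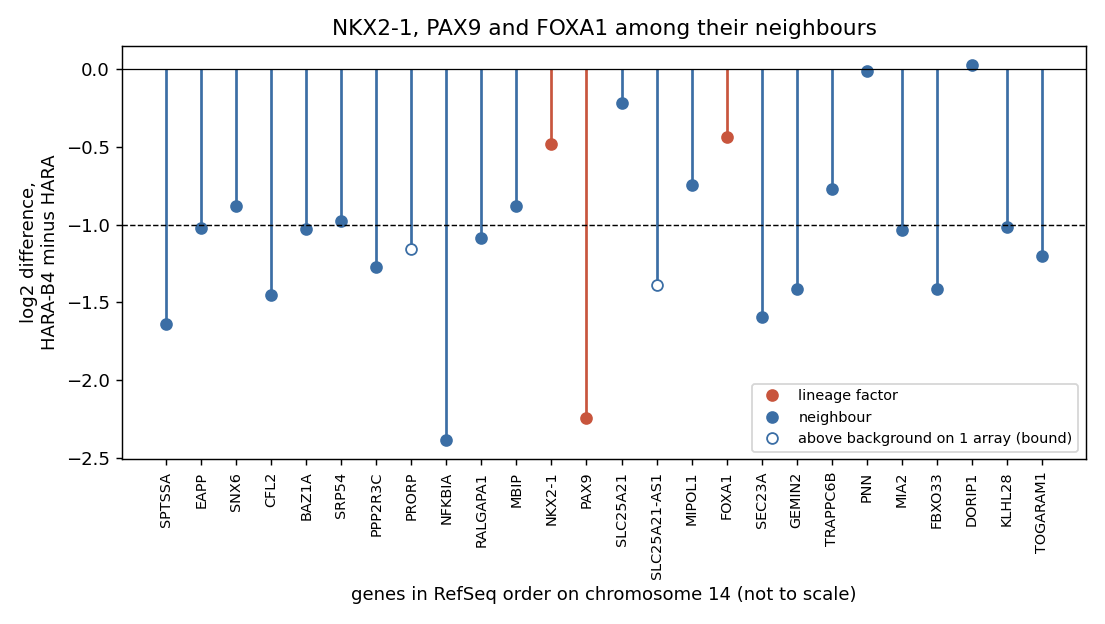
Log2 difference (HARA-B4 minus HARA) of genes above background on at least 1 array, in RefSeq order around NKX2-1, PAX9 and FOXA1 (red) on chromosome 14, with a dashed line at 2-fold lower; open circles are bounds for genes above background on 1 array. Most neighbours lie near or under -1. On their brightest probe sets PAX9 lies at -2.25, and NKX2-1 and FOXA1 lie at -0.48 and -0.44.

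The other members lay in surroundings of different kinds. Around KLF4 on chromosome 9, 18 of 20 flanking genes were higher in HARA-B4, with a median of 0.58 and 0 at 2-fold, and KLF4 at 1.93 was above the highest of them (0.92). Around TFAP2C on chromosome 20, 15 of 20 were higher with a median of 0.50, and 5 of them at least 2-fold, where 3.62% of all genes were. TFAP2C at 0.72 was thus 0.22 above the median of its neighbours. The higher values of KLF4 and TFAP2C thus stood among neighbours that were also higher on balance. The part of the neighbours' shift in these values was not tested.

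SOX2 and TP63, both higher in HARA-B4, stood above the medians of their neighbours on chromosome 3. Of the 20 genes flanking SOX2, 14 had a negative difference and 6 a positive one, with a median of -0.21, and the same counts held for TP63, with a median of -0.25. By 2-fold, 3 of these 40 genes were higher, GNB4 (2.32) beside SOX2 and CCDC50 (1.51) and PLAAT1 (2.59) beside TP63, and 5 were lower, all beside TP63. The 3 were named after their values were seen. SOX2 was 0.90 and TP63 0.80 above these medians. From a list of 30 genes of the 3q26-q28 region, which does not hold these 3, 25 were above background. Of these 25, 21 had a negative difference, 0 were higher and 4 lower at 2-fold, with a median of -0.21. Many of them, among them CLDN1, ETV5 and TPRG1, are also flanking genes counted above, so the list largely repeats those values. Over all genes above background, 3.62% were higher and 4.20% lower at 2-fold. The 4 lower genes were the tight junction gene CLDN1 (-2.46), the ETS factor ETV5 (-1.48), the zinc finger factor MECOM (-1.35) and TPRG1, which adjoins TP63 (-1.01); with all probe sets averaged 2 of the list were lower. The flanking medians of KLF5, TFAP2A and GRHL2 were 0.01, 0.16 and 0.04.

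**Figure D4:**
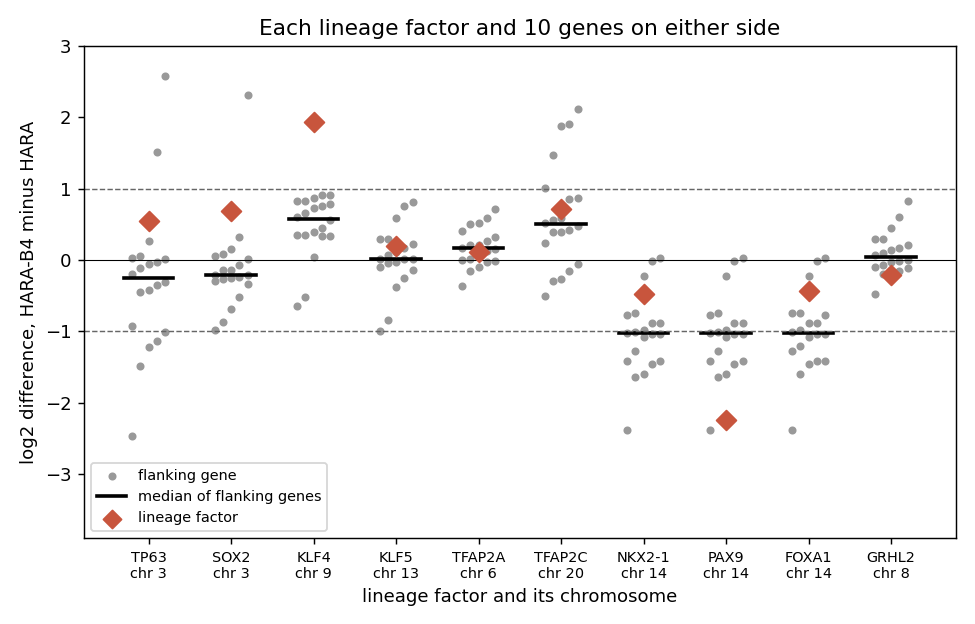
Log2 difference (HARA-B4 minus HARA) of each lineage factor (diamond) beside its 10 nearest genes above background on both arrays, on either side (grey points) and their median (black bar), with dashed lines at 2-fold. KLF4 lies above and PAX9 below nearly all of their neighbours, and SOX2 and TP63 lie above medians of -0.21 and -0.25. Each factor is shown by its brightest or only probe set, and the other PAX9 probe set differed by -1.10.

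Among other regulators of stratified epithelium, 27 were measured and 19 were above background on at least 1 array, with 2 higher, 0 lower and a median of 0.11, where 3.62% of all genes were higher. Both higher genes entered the count only through HARA-B4, the array where they were higher, so the count is not read against that share. Both calls were lost with the background at the 99th percentile and with the background raised by 1 (log2). ZNF750, a factor of terminal epidermal differentiation, was above background in HARA-B4 only and at least 2.67-fold higher there, at a signal of 72.5 against 21.0. MAF, a factor that also acts in epidermal differentiation, was at least 2.43-fold higher, at 65.8 against 2.01, and a second MAF probe set was also above background in HARA-B4 only. No probe set of either gene was above background in HARA.

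Other lung and airway regulators gave 4 lower genes and 0 higher among 14 above background, with a median of -0.17, where 4.20% of all genes were lower. FOXP2, a forkhead factor of lung epithelium, read 100.4 in HARA and 34.6 in HARA-B4 (-1.53), and its other probe sets above background on both arrays differed by -1.04 and -0.10. FOXP1 read 246 and 104 (-1.25), with its other probe sets above background on both arrays also past 2-fold lower. GATA6, a zinc finger factor of foregut endoderm, read 196 and 80.4 (-1.28). ETV5 read 210 and 75.5 (-1.48), and its other probe sets above background on both arrays differed by -1.61, -1.44 and -0.33. When all probe sets were averaged, the list held 1 gene lower by 2-fold. FOXJ1, INSM1 and POU2F3, markers of ciliated, neuroendocrine and tuft cells, were not above background on either array.

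The genes that these factors are known to control were described from lists. Beside each count below, 3.62% of all genes above background were higher and 4.20% lower by 2-fold. Of 22 basal layer genes known as TP63 targets and above background, 1 was higher and 0 lower by 2-fold, and their median was 0.19. KRT15, a basal keratin, read 114 in HARA and 454 in HARA-B4 (1.997). The desmosomal cadherin DSC3, named after its values were seen, read 1807 and 915 (-0.98), with other probe sets at -1.36 and -0.85. The list held 1 lower gene with the median difference subtracted, under quantile normalization, with the lowess trend removed and with all probe sets averaged.

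More of the differentiation genes linked to KLF4 reached 2-fold. Of the 17 that could be read, 9 were higher in the subline by 2-fold or more and 0 lower, where 3.62% of all genes were higher. Their median was 1.09. Of the higher genes, IVL, KRT1, LORICRIN and SCEL were above background in HARA-B4 only, as were KLK5 and KRT4 below 2-fold. These entered the count only through the array where they were higher, and the median is the LORICRIN bound. The higher genes above background on both arrays were CALML3, SPRR1A, SPRR1B, SPRR2B and KRT13. CALML3, a calmodulin-like protein of squamous epithelium, read 151 and 1321 (3.13), on a probe set ending in _x_at, with another not above background. SPRR1B, a cornified envelope precursor, read 349 and 2154 (2.63), and SPRR2B of the same family read 41.0 and 193 (2.23). KRT1, the keratin of the suprabasal layers, was above background in HARA-B4 only and at least 4.92-fold higher. The list was not uniform: 11 further members were not above background on either array, and cystatin A (CSTA) read 2328 and 1217 (-0.94). With the background at the 99th percentile of receptor probe sets 5 genes of the list were higher. Under quantile normalization 10 were higher and 1 lower.

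Genes of alveolar, club and glandular epithelium, which NKX2-1 and FOXA1 are known to support, gave many members with no readable signal. Of 25 measured, 12 were not above background on either array, among them NAPSA, SCGB1A1, SCGB3A2 and SFTPD. Of the 13 others, 1 was higher and 1 lower by 2-fold, and their median was 0.07. LPCAT1, a phospholipid enzyme of surfactant synthesis, read 273 and 782 (1.52), and KRT19, a keratin of simple epithelia, read 159 in HARA and 0.403 in HARA-B4, at least 5.85-fold lower; with the background at the 99th percentile, or all probe sets averaged, KRT19 was no longer counted and the list held 0 lower. KRT19 was above background in HARA only and so entered the count only through that array. SFTPB, a surfactant protein, was dim at 43.7 and 56.1 on a probe set ending in _x_at. The other SFTPB probe sets were not above background on either array. The brightest genes of the list were KRT18, at 3065 and 2740, and KRT8, at 1034 and 1238.

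Junction genes known as GRHL2 targets were mixed, with 1 higher and 1 lower of 14 above background and a median of 0.18. CLDN4 was above background in HARA-B4 only (at least 3.28-fold higher) and CLDN7 in HARA only (at least 2.16-fold lower). Each entered the count only through the array where it was higher. Neither call held with the background at the 99th percentile or raised by 1 (log2). The list also held 0 higher with all probe sets averaged and 0 lower on log2(signal + 16). CDH1, the E-cadherin gene, read 1951 and 2290 (0.23). Of 11 factors of mesenchymal cells, 5 were above background, 1 of them higher and 0 lower by 2-fold. FOXC2 read 83.6 and 257 (1.62), and another FOXC2 probe set was not above background on either array. With all probe sets averaged the list held 0 higher, and under quantile normalization it held 2. ZEB1, ZEB2 and SNAI1 were not above background on either array, and SNAI2, the SLUG gene, read 1395 and 1372 (-0.02).

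**Figure D5:**
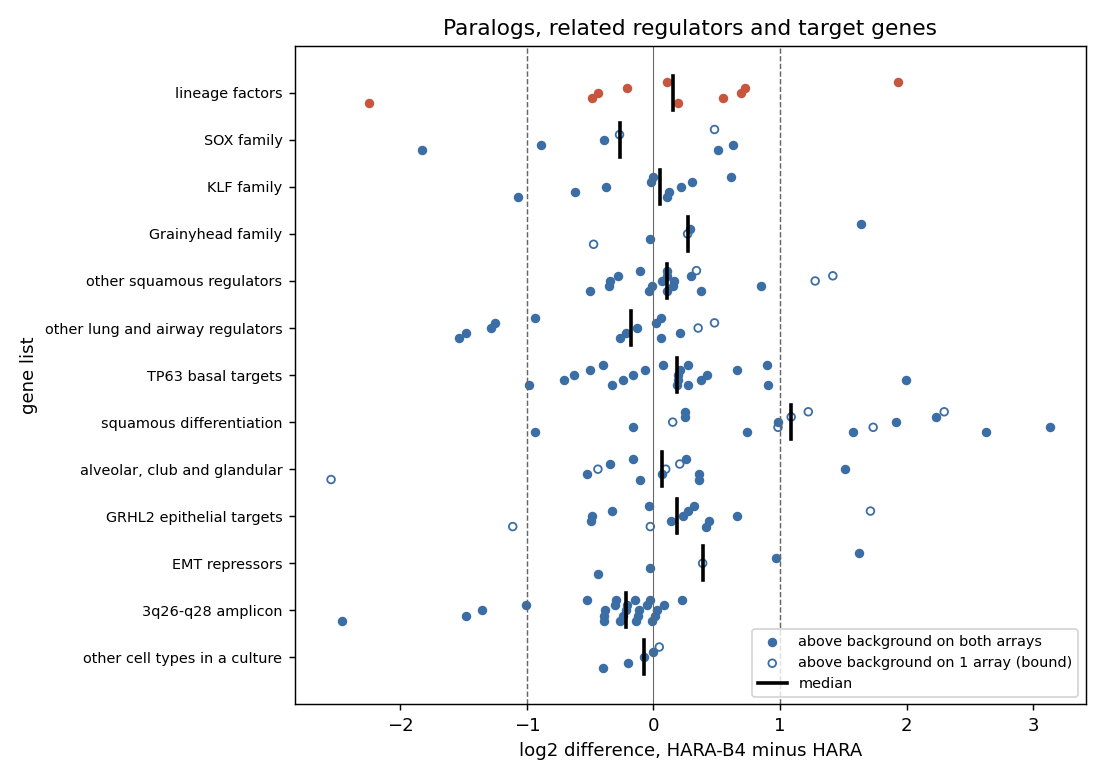
Log2 difference (HARA-B4 minus HARA) of the 10 lineage factors (red) and of each list with at least 5 genes above background (blue), with the median as a black bar, dashed lines at 2-fold and open circles for bounds. The squamous differentiation genes have a median of 1.09, which is itself a bound, and the other medians lie between -0.27 and 0.39.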

How the data were processed

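RNA of HARA and HARA-B4 was measured on 1 array each. The values deposited by the authors are intensities of probe sets on a linear scale, made with Affymetrix Expression Console per the submitters' processing notes; its summary and scaling steps were not given in the sources used here. They were taken to log2 as deposited, without further scaling. Of 54675 probe sets, 41097 had 1 gene symbol, 1801 several and 11777 none. Only the first kind was named, besides the TP63 probe set, and 41043 matched RefSeq (GRCh38.p14) by Entrez ID, which updated the symbols.

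Background was the 95th percentile of 165 olfactory, taste and vomeronasal receptor probe sets over both arrays. A gene was read by its brightest probe set, by the mean of the log2 values. Where only 1 array was above background, the level of the background stood in for the other value, which makes the fold a lower bound. Differences of at least 2-fold were counted. With 1 array per line there is no test, and precision is limited by the number of arrays.

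All members with every probe set are given, and all paralogs above background. In each other list up to 4 genes past 2-fold, the most different first, could be named, or else the 2 brightest; further genes were named after their values were seen. Members and lists were chosen with earlier results of these data known. Computation used Python 3.11.15 with numpy 2.4.6, pandas 2.3.3 and statsmodels 0.14.6, and was tested on simulated data.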

Additional observations from a re-analysis of the deposited data

How the results depend on the processing

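PAX9 stayed at 2-fold lower under all 12 alternatives, and KLF4 at 2-fold higher under 11; when the _x_at and _s_at probe sets were left out, 0 members were higher, since KLF4, TP63 and NKX2-1 then have no probe set. At 1.5-fold 3 members were higher. Of 85 member differences under the other settings 5 moved by more than the technical SD of 0.30: NKX2-1 to a bound of -0.11 with a background higher by 1 (log2), and with the mean of all probe sets SOX2 to 0.23, KLF4 to a lower bound of 2.85, PAX9 to -1.67 and FOXA1 to -0.85. The median of members and all 110 flanking medians moved by less. Over all genes the main counts were 416 higher and 483 lower; they were 206 and 244 with the background at the 99th percentile, 1175 and 1269 at 1.5-fold, 141 and 155 at 3-fold, and 256 and 290 where every probe set had to pass. Over all lists together 16 were higher and 11 lower; these were 9 and 6 with the background at the 99th percentile, 28 and 18 at 1.5-fold, and 10 and 3 at 3-fold, with 10 higher when the background was raised by 1 and 6 lower with the mean of all probe sets. Genes near background have the least certain sizes. No paired analysis was possible because each group holds 1 array.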
